A study of Mus musculus with 6 samples.

Results

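The genes of the cell division cycle were followed in liver tumors of WT and Nr2e3-/- mice. The set holds 44 of the 24063 genes of the count table, found by their symbols: 12 genes of G1 and of entry into S phase, 14 genes of DNA replication and 18 genes of mitosis. The study asked what the loss of Nr2e3, a nuclear receptor gene, does to liver tumor formation, and its RNA-seq compared 3 WT with 3 Nr2e3-/- tumors. WT male mice were of the C57BL/6J strain, for which the methods name a commercial supplier, and the Nr2e3-/- males carried a deletion of Nr2e3 whose construction was not given in the sources used here. At 15 days of age both groups received the carcinogen diethylnitrosamine (DEN) at 25 mg per kg, and livers were collected at 24 weeks, so every library comes from a carcinogen-treated animal. The methods give 3 mice per group, and the 3 libraries of a group were taken as separate mice.

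A cell passes through G1, copies its DNA in S phase and separates the copies in mitosis. D-type cyclins with Cdk4 and Cdk6, then E-type cyclins with Cdk2, release the E2F transcription factors, which switch on the genes of replication. Later the MuvB complex, with B-Myb and Foxm1, switches on the genes of mitosis, which the DREAM complex holds repressed in resting cells. Adult hepatocytes rarely divide, so in liver the RNAs of mitosis are scarce and come from the few cells that cycle, among tumor cells as well as immune and stromal cells. In a whole tumor, fewer cycling cells and less RNA per cycling cell cannot be told apart.

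The files held 15376261 to 28690279 counts per library, the lowest being Nr2e3-/- replicate 1. Nr2e3 itself had 0 counts in all 6 libraries, which allows at most 0.105 to 0.195 CPM (3 counts per library, counting error only), so the genotype could not be checked from it. All 8 hepatocyte markers were detected, with Alb at 84013 CPM or more in each library. The summed level of 8 DEN liver tumor markers was 370 to 961 CPM in WT and 362 to 677 CPM in Nr2e3-/- libraries, and non-tumor liver was not analysed here. Among the 13572 genes that passed the filter on low counts, Nr2e3-/- replicate 2 was the highest of the 6 libraries for 23.95% and the lowest for 24.3%, more often than any other library. CPM below are counts per 1000000 after TMM normalization, and fold changes are those of Nr2e3-/- over WT tumors.

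The stretches before the start sites show which control elements these genes carry. Promoters of RefSeq (GRCm38.p6, 250 bases before to 50 bases after the start) were matched to 35 of the 44 genes. They were searched on both strands for 4 motifs. The E2F motif was taken as TTTCCCGC, TTTCGCGC, TTTGCCGC or TTTGGCGC, and its 2 strands can overlap. The CHR, the element that DREAM and MuvB bind, was taken as TTTGAA. The CCAAT box, bound by NF-Y, was taken as CCAAT and the GC box, bound by Sp1, as GGGCGG. A match is a run of letters, not a measured binding site.

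Genes of mitosis and genes of replication differed in the letters they carried. The CHR letters were in the promoters of 10 of 14 mitosis genes (71.4%), 1 of 12 replication genes and 1 of 9 G1 genes, against 1220 of the 10177 promoters of all genes tested. All 10 of these mitosis promoters also held a CCAAT box, a pair found in 4.98% of the promoters of genes tested. The E2F letters were in 6 of 12 replication promoters, 1 of 14 mitosis promoters and 1 of 9 G1 promoters, against 3.95%. The CCAAT box was in 13 of 14 mitosis promoters, against 38.6%, and the GC box in 29 of all 35, against 62.3%. Among promoters of other cell cycle genes, 29 of 43 for mitosis, 7 of 37 for replication and 5 of 19 for G1 held the CHR letters. The E2F letters were in 3 of 43, 9 of 37 and 7 of 19 of them, so outside the 44 genes their share was higher among G1 than among replication promoters.

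Shown first are 5 mitosis promoters in which the CHR lies just before the start, with a CCAAT box further out. The 5′ to 3′ sequence follows the strand of the gene, ends before the start of transcription, and has the CHR (TTTGAA or TTCAAA) and the CCAAT box (CCAAT or ATTGG) in capitals.
Cdk1, chr10:69352913-69353002, minus strand: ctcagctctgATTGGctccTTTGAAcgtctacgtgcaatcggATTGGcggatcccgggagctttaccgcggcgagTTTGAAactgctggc
Top2a, chr11:99024200-99024289, minus strand: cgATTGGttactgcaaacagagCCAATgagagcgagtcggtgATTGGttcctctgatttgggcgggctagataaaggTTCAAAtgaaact
Ube2c, chr2:164769834-164769913, plus strand: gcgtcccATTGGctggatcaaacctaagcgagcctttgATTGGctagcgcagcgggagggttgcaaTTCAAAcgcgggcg
Cdc20, chr4:118437344-118437403, minus strand: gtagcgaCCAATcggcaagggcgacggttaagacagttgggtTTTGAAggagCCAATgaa
Kif11, chr19:37376322-37376371, plus strand: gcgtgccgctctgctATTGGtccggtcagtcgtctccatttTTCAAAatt

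In these 5 promoters the CHR nearest to the start began 15 bases before it in Cdk1, 18 in Cdc20, 19 in Kif11, 23 in Top2a and 29 in Ube2c. A CCAAT box began 45 bases before the start in Kif11, 48 in Cdk1, 53 in Cdc20, 57 in Ube2c and 58 in Top2a. The other mitosis promoters with CHR letters were arranged otherwise. The CHR lay 31 bases after the start in Plk1, 33 in Aurka and 41 in Bub1b. In Ccnb2 it lay 167 bases before and 5 after the start, and in Mki67 116 and 98 bases before. The replication genes Mcm6 and Mcm5, subunits of the helicase that opens DNA, show the other arrangement, with the E2F letters of both strands in capitals. The CCAAT box is in capitals in Mcm6 only. The stretch of Mcm5 ends before its CCAAT boxes, the first of which began 77 bases before the start.
Mcm6, chr1:128359741-128359825, minus strand: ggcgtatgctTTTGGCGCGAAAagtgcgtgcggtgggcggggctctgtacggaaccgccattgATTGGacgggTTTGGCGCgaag
Mcm5, chr8:75109349-75109378, plus strand: caagaacTTTCGCGCCAAAacgtccagcct

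Both held matches to the E2F letters on opposite strands that overlapped, at 110 and 106 bases before the start in Mcm6 and at 153 and 149 in Mcm5. Cdk2, the kinase of the step from G1 to S phase, and Rrm2, a subunit of ribonucleotide reductase, are shown as examples of genes whose levels separated the groups. Cdt1 separated them as well and is not shown. Capitals mark the E2F letters, the CCAAT box and the GC boxes (GGGCGG or CCGCCC).
Cdk2, chr10:128705052-128705196, minus strand: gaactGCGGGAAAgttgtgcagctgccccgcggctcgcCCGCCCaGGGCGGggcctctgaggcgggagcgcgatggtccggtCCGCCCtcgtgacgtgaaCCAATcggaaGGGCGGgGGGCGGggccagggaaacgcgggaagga
Rrm2, chr12:24708169-24708228, plus strand: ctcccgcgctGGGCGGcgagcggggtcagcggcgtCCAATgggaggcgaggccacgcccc

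Cdk2 carried the E2F letters 140 bases before its start. Rrm2 carried none of the 4 E2F spellings in its window and had a CCAAT box 50 bases before the start.

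No cell cycle gene passed the test at an adjusted p-value of 0.05, and the 3 sets did not move as blocks. Of the 44 genes, 43 passed the filter, Ccnb1 being too low. With edgeR's quasi-likelihood test 0 of the 43 had an adjusted p-value under 0.05, where 0.0958% of all genes tested did (13 genes). At an unadjusted p-value under 0.05, 2 of the 43 were higher in Nr2e3-/- tumors (Cdk6 and Rrm2), where 11.8% of all genes tested were. Another 3 were lower (Cdk2, E2f8 and Cdt1), where 9.72% of all genes tested were. Over all genes these were 1597 higher and 1319 lower, but 1102 higher and 1782 lower with upper quartile normalization, which left the cell cycle genes at 2 higher and 3 lower. The 3 Nr2e3-/- libraries lay above all 3 WT libraries for 1 of the 43 (Rrm2), against 13.9% of all genes tested. They lay below for 4 (Ccnd2, Cdk2, Cdt1 and Gins1), against 12.9%. Each of these shares was below that over all genes. The median log2 fold change was -0.10 for G1, -0.04 for replication and 0.05 for mitosis genes, beside 0.01 over all genes tested. For any 1 gene, 3 libraries against 3 leave 0.1 as the smallest p-value of an exact permutation test.

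**Figure D1:**
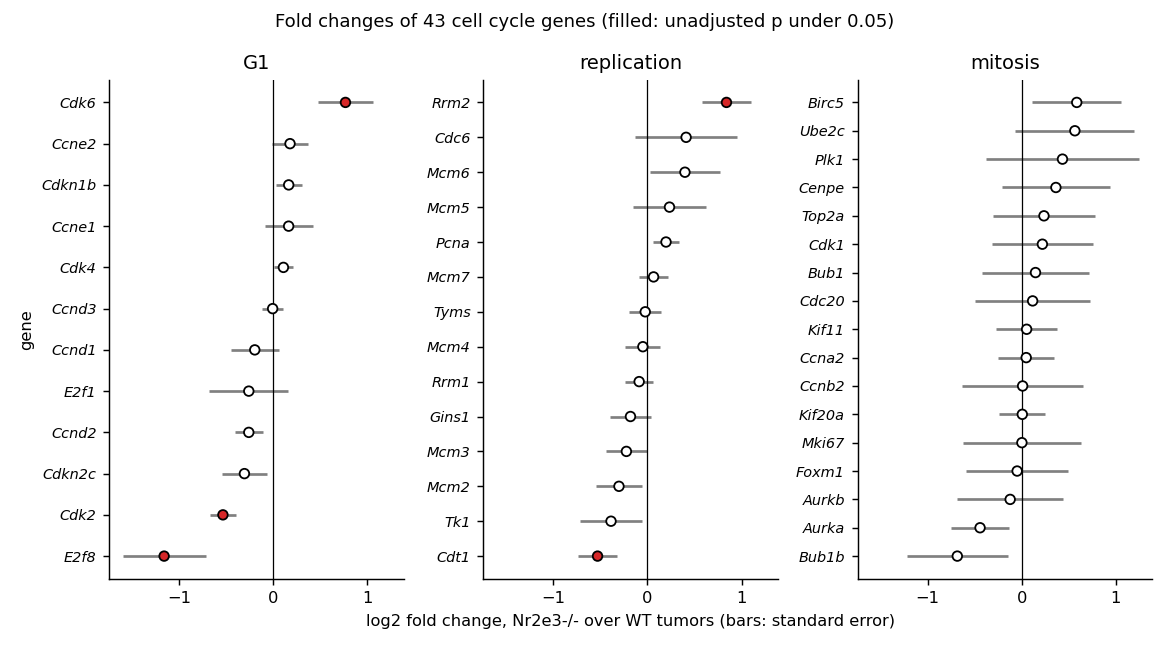
Log2 fold change of Nr2e3-/- over WT tumors (horizontal axis) for the 43 cell cycle genes tested (vertical axis). G1, replication and mitosis have a panel each, and bars are standard errors derived from the F statistic of edgeR. Filled points mark the 5 genes with an unadjusted p-value under 0.05, from E2f8 at -1.16 to Rrm2 at 0.84; mitosis genes have the widest error bars.

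Among the D-type cyclins and their kinases, which receive growth signals in G1, Cdk6 stood out while the kinase Cdk4 stayed near its WT level. Cdk6 (chromosome 5, 3341004 to 3531008, plus strand) had 5.84, 7.48 and 5.72 CPM in the WT and 6.42, 14.1 and 11.7 CPM in the Nr2e3-/- libraries, in replicate order. Nr2e3-/- replicates 2 and 3 lay above all WT libraries and replicate 1 lay among them. The log2 fold change was 0.77 with a standard error of 0.29 (edgeR, unadjusted p = 0.0323, adjusted p = 0.195). Cdk4, which shares cyclin partners with Cdk6, had 29.0 ± 1.56 CPM (SD, n = 3) in WT and 31.2 ± 0.700 CPM (SD, n = 3) in Nr2e3-/- tumors. The log2 ratio of Cdk6 to Cdk4 was -2.25, -2.03 and -2.27 in the WT and -2.24, -1.13 and -1.45 in the Nr2e3-/- libraries, so it too overlapped through replicate 1.

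Ccnd1, the main D-type cyclin of hepatocytes, varied within both groups, with 72.1, 111 and 74.0 CPM in WT and 54.9, 98.3 and 70.7 CPM in Nr2e3-/- libraries. Ccnd2 had 16.1, 14.5 and 13.9 CPM in WT and 13.5, 13.4 and 10.3 CPM in Nr2e3-/- libraries. The Ccnd2 groups did not overlap, but the gap between the nearest libraries was small, and the log2 fold change was -0.26 ± 0.15 (SE, edgeR adjusted p = 0.339). Ccnd3, of the same family, had a log2 fold change of -0.01 ± 0.11 (SE). The CDK inhibitors Cdkn1b and Cdkn2c overlapped between the groups. Cdkn1b (p27) had 20.3 ± 0.663 CPM (SD, n = 3) in WT and 22.8 ± 3.54 CPM (SD, n = 3) in Nr2e3-/- tumors, and Cdkn2c (p18) had 4.37 ± 0.807 and 3.50 ± 0.817 CPM.

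At the step from G1 to S phase, Cdk2 was the gene with the smallest p-value of all 43. Cdk2 (chromosome 10, 128697938 to 128705051, minus strand) had 13.5, 14.99 and 13.5 CPM in the WT and 8.41, 10.7 and 9.79 CPM in the Nr2e3-/- libraries. The lowest WT library lay above the highest Nr2e3-/- library. The log2 fold change was -0.54 with a standard error of 0.14 (edgeR, unadjusted p = 0.00558, adjusted p = 0.123). Its exons share 34 bases with Pmel on the other strand, and whether strand was used in counting was not stated. The E-type cyclins that activate Cdk2 showed no such drop. Ccne1 had 11.1, 6.02 and 7.25 CPM in WT and 7.68, 8.84 and 10.8 CPM in Nr2e3-/- libraries, and Ccne2 had a log2 fold change of 0.18 ± 0.19 (SE). The log2 ratio of Cdk2 to Ccne1 was 0.27, 1.30 and 0.89 in WT and 0.13, 0.27 and -0.14 in Nr2e3-/- libraries, with WT replicate 1 just above Nr2e3-/- replicate 2.

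The E2F factors differed between each other. E2f8, a repressor that closes the E2F program and helps hepatocytes become polyploid, had 4.03, 9.85 and 11.1 CPM in the WT and 2.71, 5.53 and 2.76 CPM in the Nr2e3-/- libraries. WT replicate 1 lay between the Nr2e3-/- libraries, so the groups overlapped. The log2 fold change was -1.16 with a standard error of 0.44 (edgeR, unadjusted p = 0.0330, adjusted p = 0.196), the largest decrease among the 43 genes. E2f1, an activator, had 3.42, 3.52 and 4.65 CPM in WT and 5.43, 2.78 and 1.57 CPM in Nr2e3-/- libraries, so the Nr2e3-/- libraries spanned a wider range than WT on both sides.

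**Figure D2:**
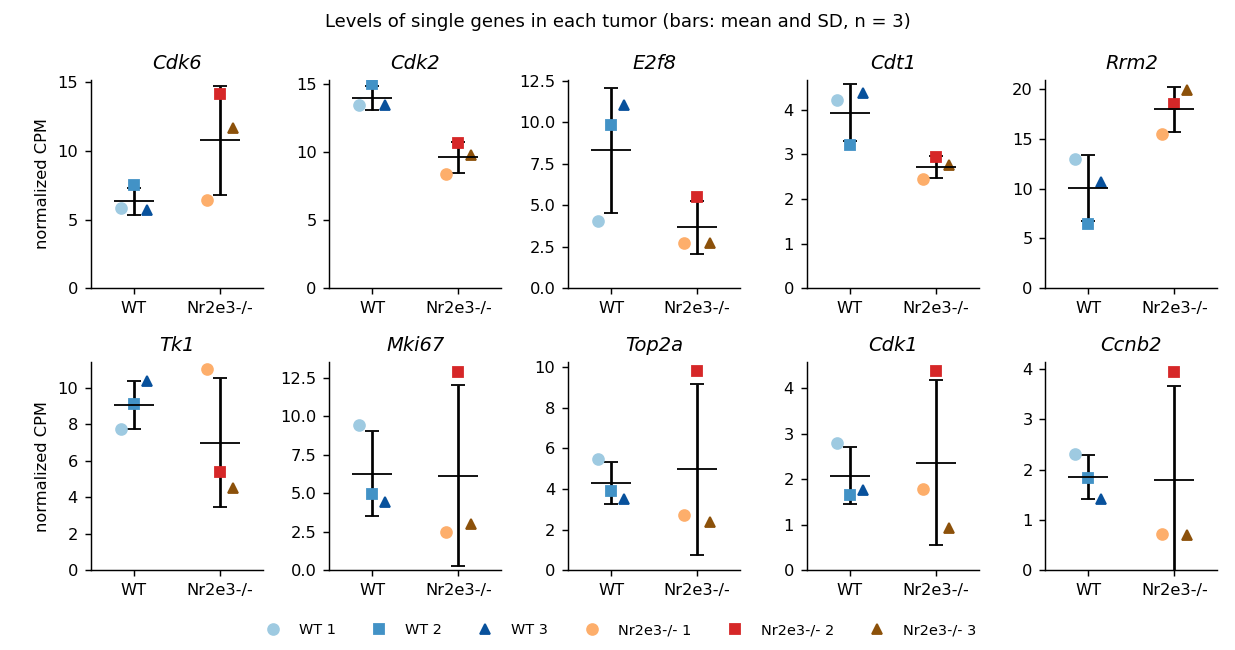
Normalized CPM (vertical axes, from 0) of 10 cell cycle genes in each of the 6 tumor libraries, with the mean and SD of the 3 libraries per group; lower SD bars end at 0. Cdk2, Cdt1 and Rrm2 separate the groups, whereas Mki67, Top2a, Cdk1 and Ccnb2 have Nr2e3-/- replicate 2 as the highest library.

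Genes of origin licensing, which load the helicase onto DNA before S phase, gave a mixed picture. Cdt1, which loads the Mcm complex (chromosome 8, 122568015 to 122573130, plus strand), had 4.22, 3.21 and 4.37 CPM in the WT and 2.45, 2.93 and 2.76 CPM in the Nr2e3-/- libraries. The groups did not overlap, although WT replicate 2 lay close to Nr2e3-/- replicate 2. The log2 fold change was -0.53 with a standard error of 0.21 (edgeR, unadjusted p = 0.0353, adjusted p = 0.201). Cdc6, its partner in loading, had only 6 to 22 counts per library, and its log2 fold change of 0.41 had a standard error of 0.54.

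The 6 Mcm subunits form a single ring, yet they did not vary alike. Mcm6 had 5.84, 5.38 and 6.28 CPM in WT and 4.50, 12.6 and 5.73 CPM in Nr2e3-/- libraries, and Mcm5 had 2.73, 2.47 and 2.91 CPM in WT and 2.05, 5.27 and 2.05 CPM in Nr2e3-/- libraries. In both, Nr2e3-/- replicate 2 was about as far above WT as in the mitosis genes described next. Mcm2, Mcm3, Mcm4 and Mcm7 lacked a peak of that size. For Mcm2 replicate 2 had 5.75 CPM, within the WT range of 4.68 to 6.76 CPM, and for Mcm3 6.42 CPM, within 5.45 to 6.69 CPM. Mcm7, whose exons overlap those of Cops6 and Ap4m1 on the other strand by 557 bases in all with the microRNA genes it hosts, had a log2 fold change of 0.07 ± 0.15 (SE). Gins1, another helicase component, had 2.61, 2.64 and 2.67 CPM in WT and 2.58, 2.56 and 1.84 CPM in Nr2e3-/- libraries. Its groups did not overlap, but 2 of the Nr2e3-/- libraries lay within 0.1 CPM of WT. Pcna, the sliding clamp of DNA polymerase, had 11.4 ± 0.828 CPM (SD, n = 3) in WT and 13.1 ± 1.57 CPM (SD, n = 3) in Nr2e3-/- tumors. Its groups overlapped, and its log2 fold change was 0.20 ± 0.14 (SE, edgeR adjusted p = 0.432).

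Of the genes that supply nucleotides, Rrm2 gave the largest increase of all 43. Rrm2 (chromosome 12, 24708254 to 24714146, plus strand) encodes the subunit of ribonucleotide reductase that limits its activity and is made in S phase. It had 13.0, 6.43 and 10.7 CPM in the WT and 15.4, 18.5 and 19.9 CPM in the Nr2e3-/- libraries. All 3 Nr2e3-/- libraries were above all 3 WT libraries. The log2 fold change was 0.84 with a standard error of 0.26 (edgeR, unadjusted p = 0.0128, adjusted p = 0.145). Rrm1, the other subunit, had 12.4 ± 1.75 CPM (SD, n = 3) in WT and 11.6 ± 0.827 CPM (SD, n = 3) in Nr2e3-/- tumors. The log2 ratio of Rrm2 to Rrm1 was -0.09, -0.69 and -0.26 in the WT and 0.42, 0.56 and 0.87 in the Nr2e3-/- libraries, without overlap. Tyms, which makes thymidylate, had a log2 fold change of -0.02 ± 0.17 (SE).

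Tk1, the thymidine kinase of S phase, went the other way from Rrm2 in 2 of the 3 Nr2e3-/- libraries. It had 7.76, 9.10 and 10.4 CPM in WT and 11.1, 5.42 and 4.54 CPM in Nr2e3-/- libraries. Replicate 1 lay above all WT libraries and replicates 2 and 3 lay below them, so that the log2 fold change of -0.39 had a standard error of 0.33. Tk1 shares 83 exon bases with Afmid on the other strand.

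The mitosis genes had a median fold change near 0 between the groups but differed sharply among the 3 Nr2e3-/- tumors. Mki67, the antigen of the Ki-67 proliferation stain, had 9.45, 4.94 and 4.44 CPM in the WT and 2.52, 12.9 and 3.03 CPM in the Nr2e3-/- libraries. Top2a, the topoisomerase that untangles chromosomes, had 5.45, 3.92 and 3.50 CPM in WT and 2.71, 9.80 and 2.38 CPM in Nr2e3-/- libraries. In both genes Nr2e3-/- replicate 2 lay above every WT library and replicates 1 and 3 below every WT library. The log2 fold changes were 0.00 ± 0.63 (SE) for Mki67 and 0.24 ± 0.54 (SE) for Top2a.

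The peak in Nr2e3-/- replicate 2 was shared by most of the set, the low levels in replicates 1 and 3 by fewer genes. Replicate 2 was above all 3 WT libraries in 16 of the 17 mitosis genes tested, against 39.3% of all genes tested. In 8 of the 17 (Ccnb2, Foxm1, Top2a, Mki67, Aurkb, Bub1b, Kif11 and Kif20a) replicates 1 and 3 were in addition below all 3 WT libraries, a combination found in 2.7% of all genes tested. The exception was Aurka, whose highest library was WT replicate 1. These genes share their libraries and are not independent of each other. As the median over the 17 genes of the log2 CPM minus the WT mean, Nr2e3-/- replicates 1, 2 and 3 were at -0.62, 1.08 and -0.52, and WT replicates 1, 2 and 3 at 0.39, -0.15 and -0.29. The same medians for replication genes were -0.10, 0.14 and -0.28 in the Nr2e3-/- libraries, and for G1 genes -0.00, -0.03 and -0.13.

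**Figure D3:**
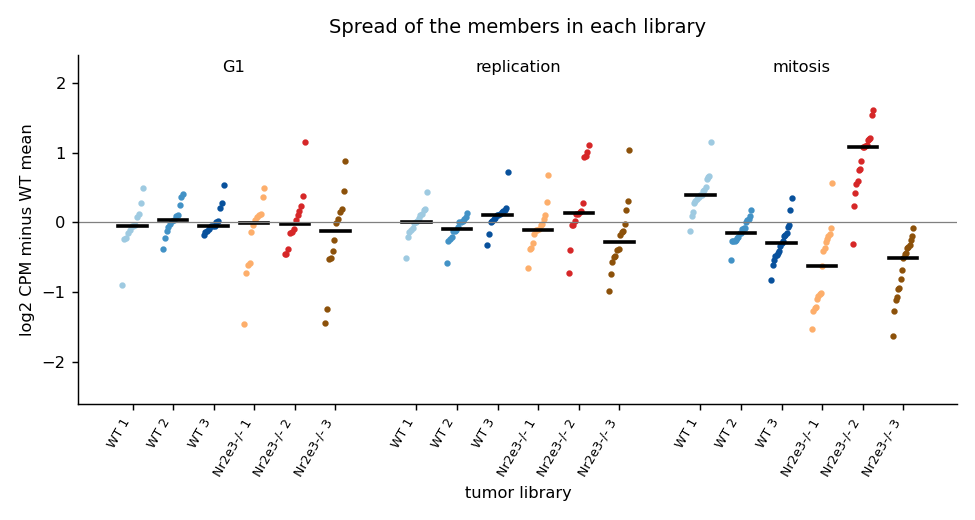
Log2 CPM of each gene minus its mean over the 3 WT libraries (vertical axis), by library, for 12 G1, 14 replication and 17 mitosis genes. Points are genes and black bars are medians; for mitosis genes the bars of the Nr2e3-/- libraries stand at -0.62, 1.08 and -0.52, while for G1 genes all 6 bars lie near 0.

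The SD of log2 CPM over the 3 libraries had a median of 0.39 in WT and 1.05 in Nr2e3-/- tumors over the mitosis genes, and it was larger in Nr2e3-/- tumors for 16 of 17. It was also larger in Nr2e3-/- tumors for 76.0% of all genes tested, with medians of 0.14 and 0.26. For replication genes the medians were 0.15 and 0.28, and for G1 genes 0.22 and 0.24. Many mitosis genes had few counts, such as Foxm1 with 5 to 43 per library, and Nr2e3-/- replicates 1 and 3 had the fewest counts in total. Neither the difference in spread between the sets nor the part of counting error in it was tested.

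Within the mitosis set, the kinase Cdk1 and its cyclins are the engine of entry into mitosis. Cdk1 had 2.80, 1.66 and 1.77 CPM in WT and 1.79, 4.38 and 0.92 CPM in Nr2e3-/- libraries. Ccnb2 had 2.30, 1.83 and 1.42 CPM in WT and 0.73, 3.94 and 0.70 CPM in Nr2e3-/- libraries. Cdk1 in Nr2e3-/- replicate 1 stayed within the WT range, while Ccnb2 there was below it. Ccnb1 had 14, 3 and 8 counts in WT and 1, 27 and 5 counts in Nr2e3-/- libraries, too few for the test but highest in the same library. Ccna2, a cyclin of both S phase and mitosis, had the narrower range of 5.03 to 9.88 CPM in Nr2e3-/- tumors, and shares 510 exon bases with Exosc9 on the other strand. Foxm1, the transcription factor that drives this program, had 33, 24 and 21 counts in WT and 5, 43 and 12 counts in Nr2e3-/- libraries.

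Among the mitotic kinases, Plk1 varied most, with 1.498, 0.41 and 0.38 CPM in WT and 0.26, 2.08 and 0.54 CPM in Nr2e3-/- libraries, from 4 to 56 counts. Its WT replicate 1 stood out as well. Aurkb and Birc5 belong to the chromosomal passenger complex, which corrects the attachment of chromosomes to the spindle. They shared the peak in replicate 2, at 1.41 CPM for Aurkb and 2.38 CPM for Birc5, but Birc5 in replicate 1 had 1.52 CPM, above the WT range of 0.87 to 1.23 CPM. Aurka, a kinase of the spindle poles, had 3.61, 2.57 and 1.70 CPM in WT and 2.05, 2.005 and 1.73 CPM in Nr2e3-/- libraries. Unlike its partners it varied more in WT than in Nr2e3-/- tumors.

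The spindle checkpoint and the anaphase-promoting complex hold and then release the chromosomes. Bub1b, a checkpoint protein, had 1.80, 1.39 and 1.91 CPM in WT and 0.53, 2.005 and 0.49 CPM in Nr2e3-/- libraries, and its log2 fold change of -0.68 ± 0.54 (SE) was the lowest of the mitosis set. Its replicate 2 was close to the WT level rather than far above it. Bub1 reached 1.11 CPM in replicate 2 from 0.38 to 0.77 CPM in WT. Cdc20, which activates the complex, had 2.27, 1.62 and 0.76 CPM in WT and 0.66, 3.12 and 1.08 CPM in Nr2e3-/- libraries. Ube2c, its ubiquitin-conjugating enzyme, had 1.57, 0.88 and 0.69 CPM in WT and 0.73, 3.04 and 0.70 CPM in Nr2e3-/- libraries, and shares 592 exon bases with Tnnc2 on the other strand.

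The motors Kif11, Kif20a and Cenpe move the spindle and chromosomes. Cenpe had 1.23, 0.95 and 0.66 CPM in WT and 0.40, 2.23 and 0.87 CPM in Nr2e3-/- libraries. Kif20a ranged from 4.06 to 4.80 CPM in WT and from 3.35 to 5.83 CPM in Nr2e3-/- libraries. Its exons share 1271 bases with Cdc23 on the other strand, so its counts may hold reads of Cdc23.

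**Figure D4:**
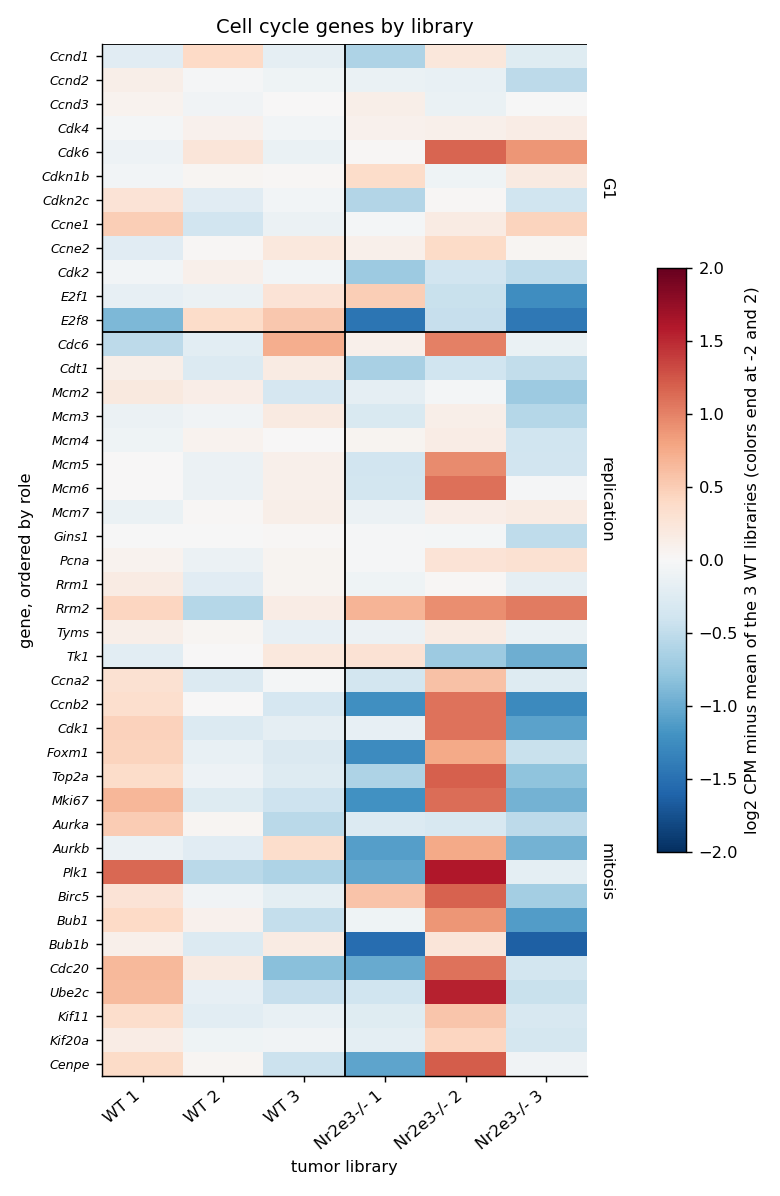
Log2 CPM minus the WT mean (color, from -2 in blue to 2 in red) of the 43 cell cycle genes tested, in rows ordered by role, in the 6 tumor libraries (columns). In the mitosis rows Nr2e3-/- replicate 2 is red for 16 of 17 genes, and in the G1 rows no column keeps a single color.

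Macrophage markers had the same highest library as the mitosis genes across the Nr2e3-/- libraries. All 8 macrophage and Kupffer cell markers were highest in Nr2e3-/- replicate 2 and 7 of 8 were lowest in Nr2e3-/- replicate 1. Their summed level was 349 to 432 CPM in WT and 300, 758 and 398 CPM in Nr2e3-/- replicates 1, 2 and 3. The summed level of the 5 neutrophil markers found of 6 was 4.02 to 6.56 CPM in WT and 3.31, 27.6 and 16.7 CPM in Nr2e3-/- libraries. The 6 bile duct markers summed to 57.3 to 119 CPM in WT and 69.1, 429 and 185 CPM in Nr2e3-/- libraries. Most of that sum was Spp1, which other cells also make, at 46.0 to 107 CPM in WT and 56.3, 410 and 171 CPM in Nr2e3-/- libraries. Epcam had 1.80 to 2.37 CPM in WT and 1.79, 10.95 and 5.79 CPM in Nr2e3-/- libraries, while Sox9 had 5.79 to 8.999 CPM, Krt19 0.55 to 1.79 CPM, and Krt7 and Cftr under 1.2 CPM over all 6 libraries. Hepatocyte markers summed to 137160 to 167498 CPM in WT and 123244 to 143755 CPM in Nr2e3-/- libraries. T and NK cell markers summed to 2.92 to 10.5 CPM in WT, highest in replicate 2, and 3.14 to 7.57 CPM in Nr2e3-/- libraries. Sinusoidal endothelial markers summed to 314 to 329 CPM in WT and 277 to 335 CPM in Nr2e3-/- libraries, and stellate cell and fibroblast markers to 98.9 to 133 CPM in WT and 142, 79.7 and 53.8 CPM in Nr2e3-/- libraries. The part of these cells in the mitosis levels was not tested.

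The direction of the mitosis genes depended on the method and on which tumor was left out. With all 6 libraries their median log2 fold change was 0.05 in edgeR, with 13 of 17 positive. It was -0.04 with upper quartile normalization, with 9 of 17 negative, and -0.26 under limma-voom with quality weights, with 14 of 17 negative. The median over all genes tested was 0.01, -0.08 and -0.01 in these fits, so upper quartile normalization lowered all genes and not only these. Without Nr2e3-/- replicate 2 the mitosis median was -0.68, with 16 of 17 negative. In that edgeR fit 5 of them passed an unadjusted p-value of 0.05, namely Ccnb2, Top2a, Mki67, Aurkb and Bub1b, and 0 of 42 cell cycle genes passed an adjusted one, where 0.131% of all genes tested did. Over all cell cycle genes in that fit 8 of 42 were lower and 2 higher at an unadjusted p-value under 0.05, where 9.46% and 9.54% of all genes tested were. Bub1b had the largest of these changes, -1.73 ± 0.33 (SE, edgeR adjusted p = 0.131). Without Nr2e3-/- replicate 1, Nr2e3-/- replicate 3 or WT replicate 1 the median was 0.38, 0.37 and 0.37, and without WT replicate 2 or 3 it was 0.04 and -0.01. The medians of the G1 and replication genes stayed between -0.18 and 0.02 in all 6 of these fits.

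**Figure D5:**
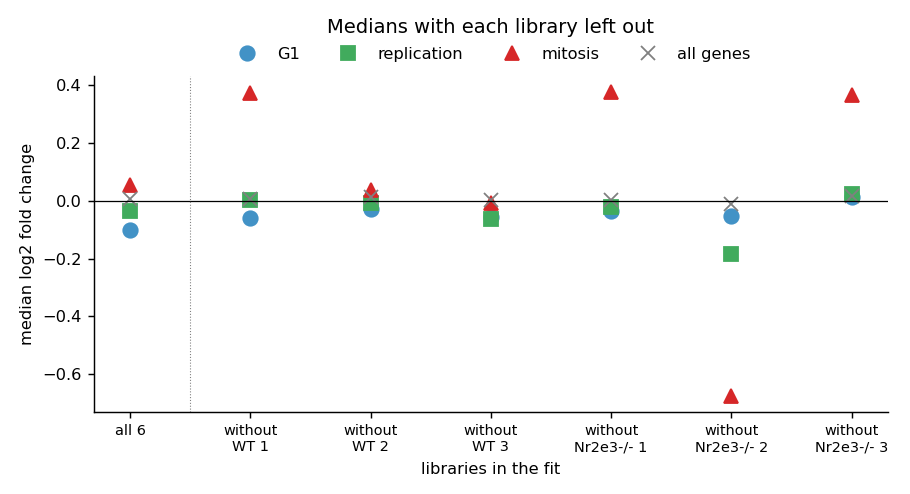
Median log2 fold change (vertical axis) of G1, replication and mitosis genes and of all genes tested, with all 6 libraries and with each library left out (horizontal axis). The mitosis median goes from 0.05 to -0.68 without Nr2e3-/- replicate 2, while G1, replication and all genes stay between -0.18 and 0.02 in the fits with a library left out.

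The genes closest to a call depended on the tool. Under DESeq2, in which 5.81% of all genes tested had an adjusted p-value under 0.05, Cdk2 (adjusted p = 0.0368) and Rrm2 (adjusted p = 0.0403) were called. Under limma-voom with quality weights, in which 17.4% were called, Cdk6 (adjusted p = 0.0349), Cdk2 (adjusted p = 0.0330) and Rrm2 (adjusted p = 0.0440) were. In edgeR without Nr2e3-/- replicate 1, in which 21.8% were called, these were Cdk6 (adjusted p = 0.0119), Cdk2 (adjusted p = 0.0464) and Tk1 (adjusted p = 0.0234). In each of these fits the share of cell cycle genes called was below that of all genes. Cdk2 kept an unadjusted edgeR p-value under 0.05 with any of the 6 libraries left out, with log2 fold changes between -0.62 and -0.44, and so did Rrm2, between 0.60 and 1.07. Cdk6, Cdt1 and E2f8 did not.

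Set against gene length, the members spanned a wide range of levels. Per kilobase of exon the WT mean was 18.2 CPM for Ccnd1, 8.91 for Cdk4, 4.75 for Pcna and 4.46 for Cdkn1b. At the other end were Ccnb1 at 0.072, Cdc6 at 0.076, Cenpe at 0.110 and Bub1 at 0.135 CPM per kilobase. The summed CPM of the 18 mitosis genes was 52.1, 34.5 and 32.8 in the WT and 25.7, 71.8 and 24.98 in the Nr2e3-/- libraries. The sum of the 14 replication genes was 93.5, 82.8 and 93.8 CPM in WT and 90.1, 108 and 88.4 CPM in Nr2e3-/- libraries, a much narrower range.

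The wider cell cycle also gave no call in edgeR, but its lists leaned in different directions. Of 125 further genes of G1, replication and mitosis, 118 were tested, 0 with an adjusted p-value under 0.05 in edgeR. At an unadjusted one 5 were higher and 7 lower, where 11.8% and 9.72% of all genes tested were. Nr2e3-/- libraries lay above all WT libraries for 8 of the 118 and below for 12, against 13.9% and 12.9% of all genes tested. Median log2 fold changes were 0.11 for further G1, -0.145 for further replication and 0.01 for further mitosis genes, beside 0.01 over all genes tested. Among further G1 regulators 3 of 24 were higher, a share near the 11.8% over all genes, and 1 was lower. Without overlap, 4 of the 24 were higher and 2 lower, against 13.9% and 12.9% of all genes tested. Cdkn1a, which encodes the p53-induced CDK inhibitor p21, had 11.9, 11.5 and 7.46 CPM in the WT and 14.6, 23.6 and 26.8 CPM in the Nr2e3-/- libraries, without overlap. Its log2 fold change was 1.08 with a standard error of 0.27 (edgeR adjusted p = 0.117). E2f6 and E2f4, both of the repressive E2F group, had log2 fold changes of 0.65 ± 0.17 and 0.53 ± 0.19 (SE). Cdkn2a, the locus of p16 and p19Arf, had 1.498, 1.35 and 1.18 CPM in WT and 0.66, 0.78 and 0.59 CPM in Nr2e3-/- libraries, also without overlap.

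Of 45 further replication genes tested, 1 was higher and 4 were lower, the latter a share near the 9.72% over all genes. Without overlap, 8 of the 45 were lower and 3 higher, against 12.9% and 13.9% of all genes tested. Fold changes were negative for 28 of the 45, as for 6682 of the 13572 genes tested. Gmnn, the inhibitor of Cdt1, had 6.49, 6.56 and 9.16 CPM in the WT and 5.03, 1.89 and 2.05 CPM in the Nr2e3-/- libraries. Its log2 fold change of -1.33 ± 0.39 (SE, edgeR adjusted p = 0.139) lay beside the -0.53 of Cdt1. The log2 ratio of Cdt1 to Gmnn was -0.61, -1.01 and -1.05 in WT and -1.01, 0.61 and 0.41 in Nr2e3-/- libraries, overlapping through replicate 1. Rfc3, of the clamp loader, and Pole, a DNA polymerase, had log2 fold changes of -0.80 ± 0.18 and -0.78 ± 0.31 (SE). Dnmt1, which copies DNA methylation after replication, had 13.0, 13.8 and 14.8 CPM in WT and 14.1, 35.4 and 25.9 CPM in Nr2e3-/- libraries.

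Of 49 further mitosis genes tested, 1 was higher and 2 were lower, both shares below the 11.8% and 9.72% over all genes. Wee1, the kinase that restrains Cdk1, had 26.0, 27.3 and 29.9 CPM in the WT and 21.6, 16.3 and 15.03 CPM in the Nr2e3-/- libraries, without overlap (log2 fold change -0.65 ± 0.16, SE, edgeR adjusted p = 0.113). Spc25, of the kinetochore, had a log2 fold change of -0.83 ± 0.31 (SE) and Bub3, of the checkpoint, 0.38 ± 0.14 (SE). In 30 of the 49 the highest library was again Nr2e3-/- replicate 2, as in 23.95% of all genes tested, and their median log2 CPM minus the WT mean was -0.52, 0.46 and -0.46 in Nr2e3-/- replicates 1, 2 and 3.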

How the data were processed

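RNA-seq libraries of DEN-induced liver tumors from 3 WT and 3 Nr2e3-/- male mice took their groups from the labelled genotype. The authors made TruSeq libraries, aligned single-end reads to mm10 (GRCm38) with TopHat and counted them per gene with FeatureCounts; their versions and the strand setting were not given in the sources used here. The deposited values used are raw counts. A deposited normalized table and a table of the authors' own comparison (fold changes and p-values) were not used.

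The test was that of edgeR 4.0.16 (R 4.3.3): filterByExpr (minimum count 10, minimum total 15), TMM, quasi-likelihood F test, two-sided, Benjamini-Hochberg adjustment over all 13572 genes tested. The standard error of a fold change in edgeR was derived as its absolute log2 value divided by the square root of the F statistic. Log2 CPM used a prior count of 2. Depth was 15376261 to 28690279 counts per library. Alternatives were RLE and upper quartile normalization, DESeq2 1.42.0, limma-voom (limma 3.58.1), other filters, the replicate block and leaving out each library. The code was tested on simulated data. Exons came from GENCODE and promoters from RefSeq; figures were drawn with matplotlib 3.10.9.

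All 44 genes are reported. Of the other cell cycle genes, those named are the 3 largest changes in each direction per list at an unadjusted p-value under 0.05. The genes and lists, which were written by hand, were chosen with earlier results of these data known.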

Additional observations from a re-analysis of the deposited data

How the results depend on the processing

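Of 550 values of single genes under the alternatives, 483 kept the direction of the fit to all libraries and 67 changed sign, in 25 genes, of which 3 had an unadjusted p-value under 0.05 in either fit (Ccnb2, Top2a and Mki67 without Nr2e3-/- replicate 2). The log2 fold changes that changed sign were, with upper quartile normalization, -0.024 for Mcm7, -0.042 for Ccna2, -0.086 for Ccnb2, -0.095 for Mki67, -0.036 for Kif11 and -0.081 for Kif20a; with DESeq2, 0.0013 for Ccnd3, -0.023 for Ccnb2 and -0.016 for Mki67; with at least 10 counts in every library, -0.016 for Mki67 and -0.010 for Kif20a. With limma-voom they were -0.034 for Mcm5, -0.046 for Ccna2, -0.74 for Ccnb2, -0.45 for Cdk1, -0.30 for Top2a, -0.48 for Mki67, -0.096 for Birc5, -0.62 for Bub1, -0.13 for Cdc20, -0.091 for Kif11 and -0.14 for Kif20a. With a library left out, the log2 fold change ranged from -0.44 to 0.034 for Ccnd1, from -0.062 to 0.058 for Ccnd3, from -0.013 to 0.46 for Ccne1, from -0.80 to 0.073 for E2f1, from -0.16 to 0.10 for Mcm4, from -0.39 to 0.47 for Mcm5, from -0.18 to 0.67 for Mcm6, from -0.20 to 0.0021 for Rrm1, from -0.13 to 0.042 for Tyms, from -0.33 to 0.23 for Ccna2, from -1.36 to 0.39 for Ccnb2, from -0.63 to 0.60 for Cdk1, from -0.89 to 0.31 for Foxm1, from -0.75 to 0.57 for Top2a, from -1.17 to 0.41 for Mki67, from -1.18 to 0.20 for Aurkb, from -0.86 to 1.35 for Plk1, from -0.68 to 0.54 for Bub1, from -0.80 to 0.48 for Cdc20, from -0.54 to 0.96 for Ube2c, from -0.31 to 0.26 for Kif11, from -0.28 to 0.16 for Kif20a and from -0.54 to 0.75 for Cenpe. Leaving out a library, the medians ranged from -0.060 to 0.013 for G1 and from -0.68 to 0.38 for mitosis genes, and the counts at an unadjusted p-value under 0.05 from 1 to 3 higher and 1 to 8 lower cell cycle genes, 8 to 24 other cell cycle genes and 1693 to 5220 of all genes. Calls at an adjusted p-value under 0.05 then ranged from 0 to 3 cell cycle genes and 0 to 3022 of all genes, against 0 and 13. All genes called were 8 with upper quartile normalization, 1093 with DESeq2, 2360 with limma-voom, 70 with at least 1 count and 7 with at least 10 counts in every library. DESeq2 called 2 and limma-voom 3 cell cycle genes, and limma-voom gave 5 lower cell cycle genes, 29 other cell cycle genes and 4981 of all genes at an unadjusted p-value under 0.05. The mitosis median was -0.26 with limma-voom and -0.036 with upper quartile normalization, which also moved the G1 median to -0.19 and the median of all genes to -0.08. The causes were not tested.

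The labels do not say whether the replicate numbers pair the samples. The correlations of same-numbered deviations were -0.08, 0.22 and 0.02. They cannot decide it, as libraries of different numbers were not compared. With the replicate block, 0 of all genes had an adjusted p-value under 0.05 and 2438 an unadjusted one (2916 without it). The block gave -0.37 for Ccnb2, -0.038 for Top2a, -0.30 for Mki67 and -0.030 for Kif20a on the log2 scale, and 2 higher and 2 lower cell cycle genes at an unadjusted p-value under 0.05. Depth limited Ccnb1, Cdc6, Foxm1, Aurkb, Plk1, Bub1, Bub1b and Cenpe, each with a library under 10 counts.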
